A study of Mus musculus with 12 samples.

Results

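The genes described here are 28 of the 43453 genes in the deposited count table. They encode enzymes of cholesterol biosynthesis, the regulators that control the pathway through the transcription factor SREBP2, and a pair of proteins that move sterol or remove its uptake receptors. They were chosen by name for their known place in the pathway, with earlier results of these data known. Their shares of calls below are thus a description and not an independent test. All 28 passed the filter on low counts in each of the 6 comparisons below, and the lowest count of any of them in a library was 72.

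The study asked how TLR4 of macrophages shapes the response to LPS, a component of the bacterial outer membrane that TLR4 senses. BMDMs, which are macrophages grown from mouse bone marrow, were sequenced as poly(A) RNA in 4 groups of 3 libraries. All mice were C57BL/6 and all groups carry the homozygous loxP-flanked allele tlr4f/f; the tlr4f/f-lysM-cre mice also carry Cre under the lysozyme M promoter, which removes floxed tlr4 in cells of the myeloid lineage and need not act in every cell. The bone marrow cells were kept with 50 ng/mL of M-CSF for 7 days, and LPS was then added to the LPS groups at 1 µg/mL, for 6 h, which gives the column headings LPS- tlr4f/f and, with Cre, LPS- tlr4f/f-lysM-cre for the groups with no LPS, and LPS+ tlr4f/f and, with Cre, LPS+ tlr4f/f-lysM-cre for those with LPS. The age of the donor mice and their number are not given for this experiment in the sources used here. The 3 libraries of a group are described as independent replicates, but whether these are separate mice or separate cultures is not given in the sources used here, so the p-values measure the spread between these libraries, which may be technical.

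The headings LPS- tlr4f/f-lysM-cre and, of the LPS groups, LPS+ tlr4f/f may be exchanged, since 3 genes whose behaviour is known go against them. Tlr4, the targeted gene, had 76.7, 150.0 and 119 CPM (counts scaled to a common library total, with TMM normalisation) in the columns headed LPS- tlr4f/f and 116, 93.1 and 114 CPM under the heading LPS- tlr4f/f-lysM-cre. Under LPS+ tlr4f/f it had 31.2, 28.2 and 24.7 CPM, and under LPS+ tlr4f/f-lysM-cre 27.6, 24.5 and 24.9 CPM. Lyz2, the lysozyme gene whose locus carries the Cre, was between 5907 and 9294 CPM under LPS- tlr4f/f-lysM-cre and between 10.4 and 14.5 CPM under LPS+ tlr4f/f. Il1b, the interleukin-1 beta gene that LPS induces, was between 1606 and 8161 CPM under LPS- tlr4f/f-lysM-cre and between 2.69 and 3.64 CPM under LPS+ tlr4f/f. Set against the other groups, LPS+ tlr4f/f differed from LPS- tlr4f/f by a log2 fold change of -10.09 (SE 0.70) for Lyz2 and -0.19 (SE 1.13) for Il1b. LPS+ tlr4f/f-lysM-cre differed from LPS- tlr4f/f-lysM-cre by -6.92 (SE 0.28) for Lyz2 and -0.70 (SE 0.55) for Il1b. Tlr4 and Lyz2 were thus low under LPS+ tlr4f/f and Il1b was high under LPS- tlr4f/f-lysM-cre. Columns are therefore named as headed, and each comparison is given with both readings. As headed, LPS+ tlr4f/f-lysM-cre against LPS- tlr4f/f-lysM-cre is LPS in tlr4f/f-lysM-cre BMDMs, and with the headings exchanged it is the genotype comparison with LPS. As headed, LPS+ tlr4f/f against LPS- tlr4f/f is LPS in tlr4f/f BMDMs, and with the headings exchanged it is the genotype comparison without LPS. As headed, LPS- tlr4f/f-lysM-cre against LPS- tlr4f/f is the genotype comparison without LPS, and with the headings exchanged it is LPS in tlr4f/f BMDMs. Likewise LPS+ tlr4f/f-lysM-cre against LPS+ tlr4f/f is the genotype comparison with LPS as headed, and LPS in tlr4f/f-lysM-cre BMDMs if exchanged.

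Cholesterol is built from acetyl-CoA through mevalonate, isoprenoid units, squalene and lanosterol, and the isoprenoid branch point also feeds the lipid anchors of small GTPases, ubiquinone and dolichol. SREBP2 is held in the endoplasmic reticulum by SCAP and the INSIG proteins when sterol is abundant, and when sterol falls SCAP carries it to the Golgi, where proteases release the fragment that turns on the genes of the pathway. Macrophages take up much of their cholesterol from lipoproteins and dying cells, and oxysterols made in activated macrophages are known to hold SREBP2 back.

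Sterol-responsive promoters are known to combine a sterol regulatory element, read by SREBP, with boxes for the factors NF-Y and Sp1 nearby. The 250 bases before the annotated start were read from RefSeq (GRCm38.p6) for 24 of the 28 members, and both strands were searched for TCACNCCAC (the core of the sterol element), CCAAT (the NF-Y box) and GGGCGG (the GC box). Fdps, Fdft1, Sqle and Stard4 were not matched. TCACNCCAC was found in 1 of 24 members, Hmgcs1 (4.17%), and in 1.22% of 27025 genes with such a window. CCAAT was found in 21 of 24 members (87.5%) and in 37.5% of all genes, and GGGCGG in 22 of 24 members (91.7%) and in 35.4% of all genes. None of the 89 matches in the members overlapped a match of another motif. A match describes letters and is neither a bound site nor a cause of a level. Other spellings of the sterol element and other stretches of the genes were not searched, so a member with no match may still have such an element. The 200 bases before the start are shown for Hmgcs1, the member with a match of TCACNCCAC, and for Hsd17b7 and Dhcr7, the pair of members that differed most in LPS+ tlr4f/f-lysM-cre against LPS- tlr4f/f-lysM-cre. Capitals mark the matches of the 3 motifs; Hmgcs1 lies at chr13:119690151-119690350 on the plus strand, Hsd17b7 at chr1:169969206-169969405 on the minus strand and Dhcr7 at chr7:143830014-143830213 on the plus strand, where the start with the most matches of its 3 annotated starts is used.
Hmgcs1: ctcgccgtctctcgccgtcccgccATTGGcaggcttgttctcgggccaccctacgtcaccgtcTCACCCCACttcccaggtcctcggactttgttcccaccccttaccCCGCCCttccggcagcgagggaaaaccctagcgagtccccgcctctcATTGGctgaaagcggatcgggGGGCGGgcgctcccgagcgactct
Hsd17b7: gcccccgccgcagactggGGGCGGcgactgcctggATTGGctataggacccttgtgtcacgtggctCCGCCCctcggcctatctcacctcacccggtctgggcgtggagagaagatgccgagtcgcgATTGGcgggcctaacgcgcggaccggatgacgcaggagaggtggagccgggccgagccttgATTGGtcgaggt
Dhcr7: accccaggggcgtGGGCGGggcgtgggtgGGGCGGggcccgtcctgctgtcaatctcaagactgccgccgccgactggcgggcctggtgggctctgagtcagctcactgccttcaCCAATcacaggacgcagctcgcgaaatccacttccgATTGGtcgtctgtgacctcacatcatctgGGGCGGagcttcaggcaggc

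**Figure D1:**
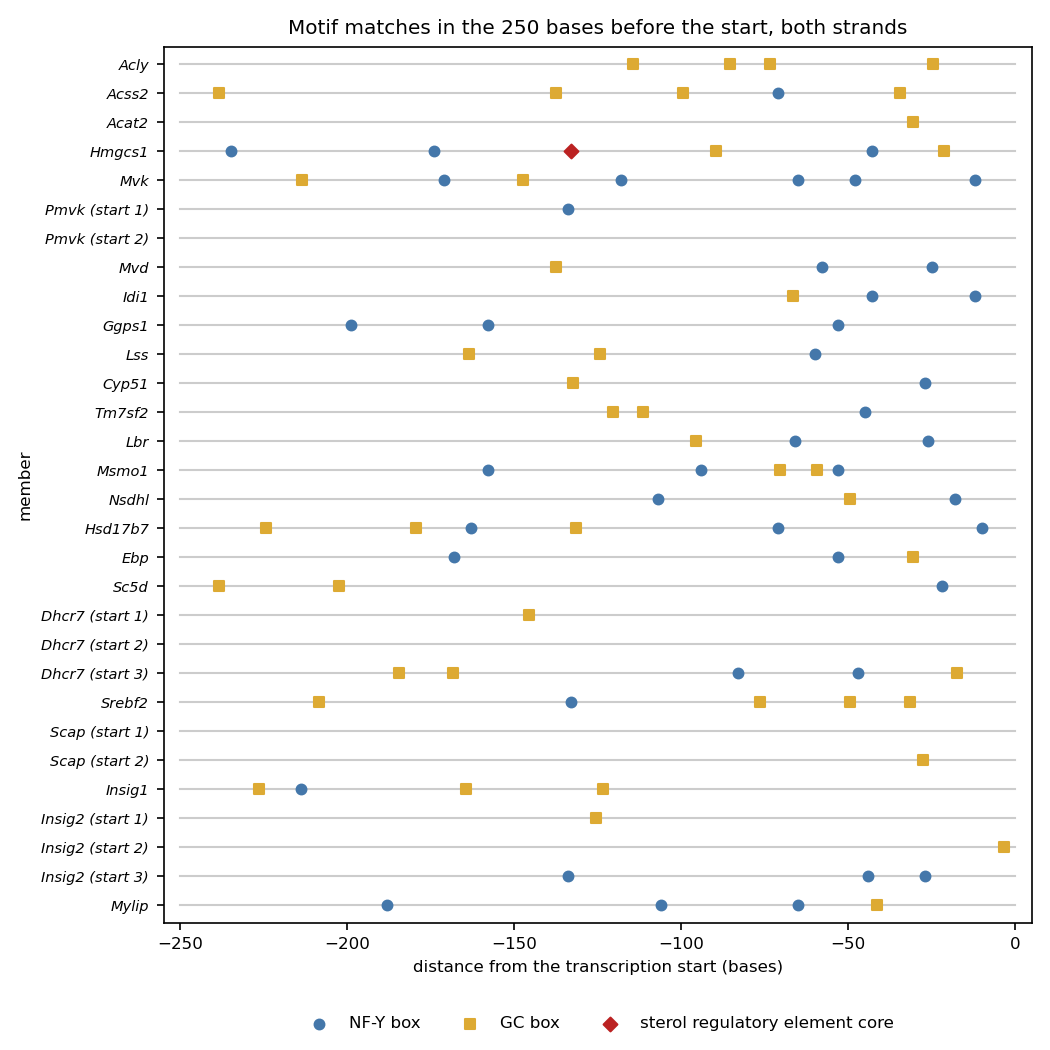
Motif matches in the 250 bases before each annotated start of 24 members, with the distance from the start in bases on the x axis and 1 row per start. Circles are NF-Y boxes, squares are GC boxes and the diamond is the 1 match of the sterol regulatory element core, in Hmgcs1; 21 members have an NF-Y box and 22 a GC box in at least 1 window.

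The libraries held between 33577440 and 56445989 counts over the genes. The macrophage markers Adgre1, Csf1r and Cd68 were detected in all libraries, and the 7 macrophage markers summed to between 6353 and 7452 CPM in LPS- tlr4f/f, 10393 and 13594 in LPS- tlr4f/f-lysM-cre, 4622 and 4891 in LPS+ tlr4f/f, and 7798 and 8003 in LPS+ tlr4f/f-lysM-cre. The 5 dendritic cell markers, which include Xcr1, summed to between 0.258 and 0.940 CPM in LPS- tlr4f/f, 4.90 and 13.1 in LPS- tlr4f/f-lysM-cre, 0.489 and 1.12 in LPS+ tlr4f/f, and 3.22 and 3.86 in LPS+ tlr4f/f-lysM-cre. B cell, T cell, erythroid, and mast cell and basophil markers each summed to at most 6.52 CPM in a library. The 6 markers of fibroblasts and stroma, which include Col1a1, summed to 655, 62 and 8.93 CPM under LPS- tlr4f/f, 915, 134 and 1432 CPM under LPS- tlr4f/f-lysM-cre, and between 20.5 and 44.1 CPM in the LPS+ columns. The 7 neutrophil markers were highest in LPS- tlr4f/f-lysM-cre replicate 3, with 166.6 CPM in sum. In RNA of whole cultures, fewer cells of a type and less RNA per cell cannot be told apart.

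The members were less even among the libraries headed LPS- than among those headed LPS+. The median coefficient of variation of the 28 members was 32.1% in LPS- tlr4f/f, 37.0% in LPS- tlr4f/f-lysM-cre, 10.3% in LPS+ tlr4f/f and 6.69% in LPS+ tlr4f/f-lysM-cre. Over all genes with a mean of at least 1 CPM it was 17.8%, 21.1%, 6.38% and 6.60%. The CPM of the 20 enzymes from Acat2 to Dhcr7, which take acetyl-CoA to cholesterol, summed to 491, 835 and 530 in LPS- tlr4f/f and to 429, 567 and 287 in LPS- tlr4f/f-lysM-cre. The sums were 949, 992 and 1118 in LPS+ tlr4f/f and 900.2, 926 and 1003 in LPS+ tlr4f/f-lysM-cre, so all 6 LPS+ columns lay above all 6 LPS- columns. LPS- tlr4f/f replicate 2 was the highest library of its group for 18 of 20 enzymes, LPS- tlr4f/f-lysM-cre replicate 2 for 17, LPS+ tlr4f/f replicate 3 for 16 and LPS+ tlr4f/f-lysM-cre replicate 3 for 15. The lowest library of its group was LPS- tlr4f/f replicate 1 for 15 enzymes, LPS- tlr4f/f-lysM-cre replicate 3 for 15, LPS+ tlr4f/f replicate 1 for 11 and LPS+ tlr4f/f-lysM-cre replicate 1 for 12.

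**Figure D2:**
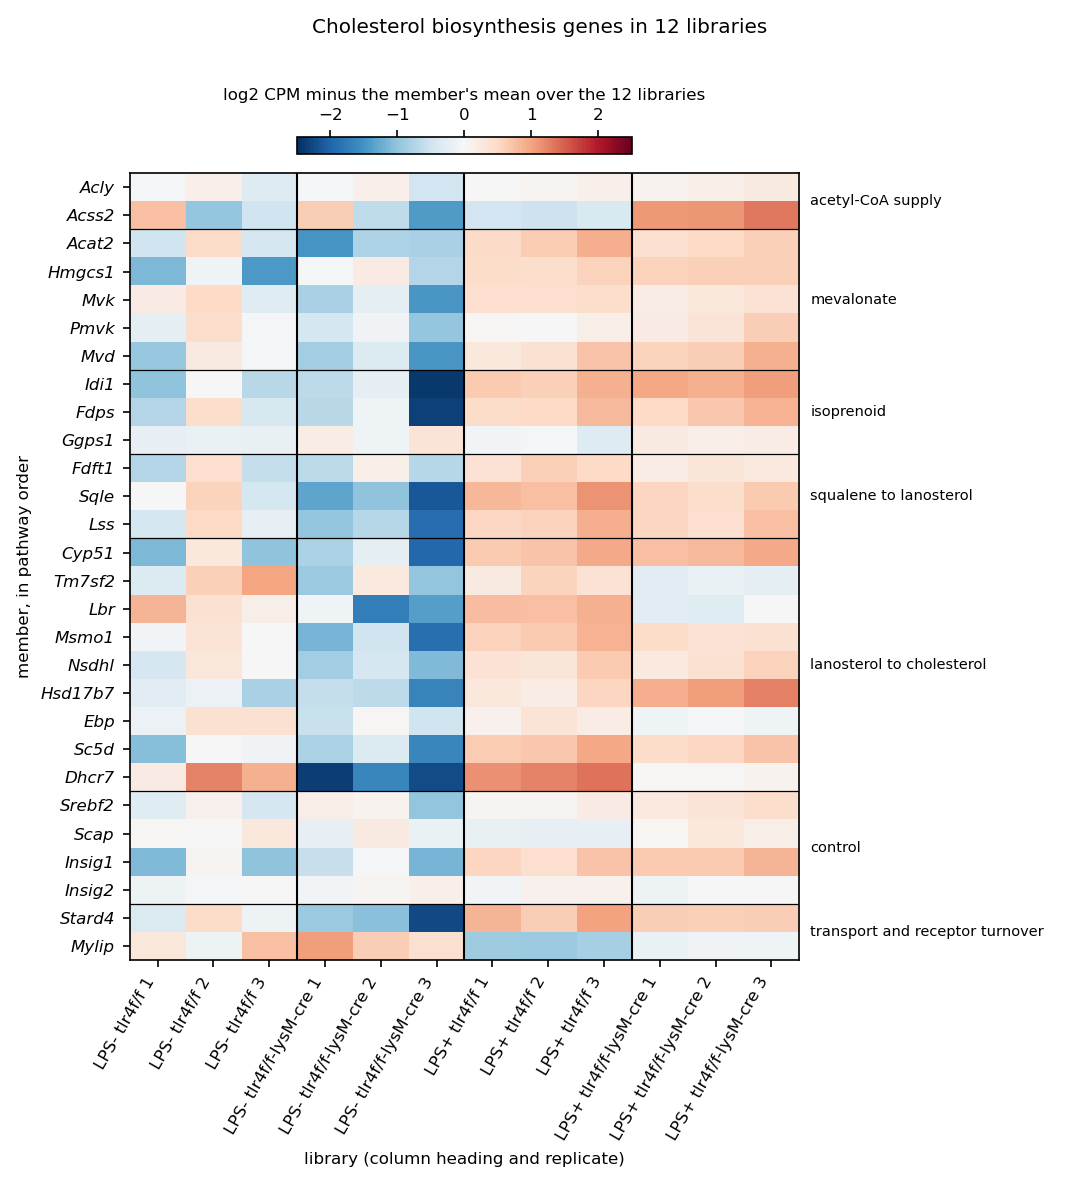
Heat map of the 28 members in pathway order (rows) over the 12 libraries (columns, named as headed), with colour giving log2 CPM minus the member's mean over all libraries. The columns headed LPS- tlr4f/f-lysM-cre are mostly blue and the LPS+ columns mostly red for the enzymes from Acat2 to Sc5d, Mylip shows the opposite colours, and Insig2 is near white throughout.

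Per kilobase of transcript, the most abundant members in the columns headed LPS- tlr4f/f were Acly, which makes cytosolic acetyl-CoA from citrate, with 45 ± 6.67 CPM per kb (SD, n = 3), and Srebf2, which encodes SREBP2 itself, with 38.3 ± 7.61. Fdps, the farnesyl diphosphate synthase, followed with 34.1 ± 15 CPM per kb, and Msmo1, a C4 methyl oxidase, with 33.8 ± 5.28. These 4 neighbours did not differ by more than the sum of their SDs. In the columns headed LPS+ tlr4f/f-lysM-cre the highest levels per kb were those of Fdps (61 ± 8.11), Srebf2 (55.5 ± 3.79), Acly (52.8 ± 2.68) and Insig1 (49.1 ± 3.98). Mylip and Dhcr7 changed their place in this order most. Mylip, which encodes a receptor-degrading ligase described below, was 6th of 28 in LPS- tlr4f/f, 3rd in LPS- tlr4f/f-lysM-cre, 18th in LPS+ tlr4f/f and 12th in LPS+ tlr4f/f-lysM-cre. Dhcr7, the reductase of the last step, was 15th in LPS- tlr4f/f and in LPS+ tlr4f/f, 28th in LPS- tlr4f/f-lysM-cre and 26th in LPS+ tlr4f/f-lysM-cre.

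The largest shift of the pathway was in LPS+ tlr4f/f-lysM-cre against LPS- tlr4f/f-lysM-cre, which is LPS in tlr4f/f-lysM-cre BMDMs as headed and the genotype comparison under LPS if exchanged. Here 26 of 28 members had a positive log2 fold change, with a median of 1.20 beside 0.03 over all 14245 genes tested. The exceptions were Mylip and Insig2, and Ggps1 (0.02) turned slightly negative (-0.01) with RLE in place of TMM scaling. By the DEG criteria of the study, a fold change above 2 with an adjusted p below 0.01 (edgeR's quasi-likelihood test, Benjamini-Hochberg over all genes tested), 7 of 28 members were DEGs and all 7 were higher. This is 25% of the members beside 6.09% of all genes. At an adjusted p below 0.05, 16 members (57.1%) were higher beside 12.5% of all genes, and 1 member (3.57%) was lower beside 14.2% of all genes.

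Of the pair that supplies acetyl-CoA, neither passed. Acly, the citrate enzyme, differed by 0.26 (SE 0.15). Acss2, which makes acetyl-CoA from acetate, had 17.2, 7.29 and 4.23 CPM in LPS- tlr4f/f-lysM-cre and 23.8, 24.3 and 28.1 in LPS+ tlr4f/f-lysM-cre. Its groups did not overlap, but replicate 1 of LPS- tlr4f/f-lysM-cre lay far above the other two, and the log2 fold change of 1.39 (SE 0.47) had an adjusted p of 0.0707 by edgeR.

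All 5 mevalonate genes were higher at an adjusted p below 0.05, beside 12.5% of all genes. Acat2, the thiolase that condenses acetyl-CoA, was a DEG, beside 6.09% of all genes. Acat2 had 4.77, 7.72 and 7.55 CPM in LPS- tlr4f/f-lysM-cre and 17.5, 18.7 and 19.9 in LPS+ tlr4f/f-lysM-cre, and its log2 fold change was 1.47 (SE 0.21, adjusted p = 0.00572, edgeR). All libraries of the higher group lay above all of the lower. Mvd, which makes isopentenyl diphosphate, had a similar difference of 1.50 (SE 0.27) and an adjusted p of 0.0101 by edgeR, just outside the DEG criteria. Hmgcs1, the HMG-CoA synthase shown above with its match of the sterol element core, differed least of the 5, by 0.71 (SE 0.21, adjusted p = 0.0490, edgeR). The kinases Mvk and Pmvk lay between, with 1.02 and 0.84.

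Of the 3 isoprenoid genes, 1 was higher at an adjusted p below 0.05, beside 12.5% of all genes. Idi1, the isomerase of the 5-carbon units, was higher by 1.81 (SE 0.47, adjusted p = 0.0327, edgeR). Fdps differed by 1.47 (SE 0.48), with an adjusted p of 0.0645 by edgeR that did not pass. Ggps1, which draws farnesyl diphosphate away to make geranylgeranyl diphosphate, had 24.1, 19.6 and 26.4 CPM in LPS- tlr4f/f-lysM-cre and 24.7, 23.8 and 23.9 in LPS+ tlr4f/f-lysM-cre, with overlapping groups.

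From squalene to lanosterol, Sqle and Lss were DEGs, beside 6.09% of all genes, and Fdft1 was not. Sqle, the squalene epoxidase, had 15.7, 19.3 and 8.89 CPM in LPS- tlr4f/f-lysM-cre and 56.5, 52.9 and 61.3 in LPS+ tlr4f/f-lysM-cre, with every library of LPS+ tlr4f/f-lysM-cre more than 2 times as high as any of LPS- tlr4f/f-lysM-cre. Its log2 fold change was 1.95 (SE 0.26, adjusted p = 0.00431, edgeR). Lss, the cyclase that forms lanosterol, was higher by 1.68 (SE 0.29), while Fdft1, the squalene synthase, differed by 0.59 (SE 0.23) with an adjusted p of 0.105 by edgeR.

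Of the 9 enzymes from lanosterol to cholesterol, 3 were DEGs, beside 6.09% of all genes. At an adjusted p below 0.05, 6 were higher, beside 12.5% of all genes. Dhcr7 had 2.88, 4.78 and 3.11 CPM in LPS- tlr4f/f-lysM-cre and 15, 15 and 15.6 in LPS+ tlr4f/f-lysM-cre. The libraries of LPS+ tlr4f/f-lysM-cre were nearly equal and all stood above those of LPS- tlr4f/f-lysM-cre, with a log2 fold change of 2.07 (SE 0.22, adjusted p = 0.00221, edgeR). Hsd17b7, a 3-keto reductase of C4 demethylation, had 11.3, 10.9 and 5.39 CPM in LPS- tlr4f/f-lysM-cre and 32.2, 35.4 and 40.9 in LPS+ tlr4f/f-lysM-cre, and differed by 1.96 (SE 0.28, adjusted p = 0.00536, edgeR). Nsdhl, which removes the C4 carboxyl group in the same complex, was the other DEG, with 1.16 (SE 0.20). Cyp51, the C14 demethylase, Msmo1 and Sc5d, the C5 desaturase, were higher by 1.66, 1.47 and 1.39. Tm7sf2 and Lbr, a pair of proteins with C14 reductase activity, and Ebp, the isomerase of the ring double bond, did not pass, with 0.21, 0.68 and 0.23.

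Among the regulators, Insig1, the retention protein that SREBP itself induces, had 53.1, 76.1 and 35.3 CPM in LPS- tlr4f/f-lysM-cre and 123, 124 and 142 in LPS+ tlr4f/f-lysM-cre. Its groups did not overlap and it was higher by 1.23 (SE 0.25, adjusted p = 0.0155, edgeR). Insig2, the paralogue with the same role, had 24.5, 26.8 and 28 and 23.6, 25.9 and 25.3 CPM and differed by -0.10 (SE 0.11), and Srebf2 and Scap, the escort, by 0.49 (SE 0.28) and 0.18 (SE 0.14) with no call. Stard4, a carrier of cholesterol between membranes, had 14.4, 13.3 and 5.79 CPM in LPS- tlr4f/f-lysM-cre and 41.9, 41.4 and 42 in LPS+ tlr4f/f-lysM-cre, and was a DEG with 1.89 (SE 0.31, adjusted p = 0.00837, edgeR). Mylip, also called IDOL, the ubiquitin ligase that sends lipoprotein receptors to the lysosome, went the other way, with 113, 84.4 and 72.8 CPM in LPS- tlr4f/f-lysM-cre and 48.9, 51.8 and 50.9 in LPS+ tlr4f/f-lysM-cre. It was lower by a log2 fold change of -0.85 (SE 0.17, adjusted p = 0.0136, edgeR), and its groups did not overlap.

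Both counts changed when 1 library was left out, while the direction of the members was kept. The 16 members higher at an adjusted p below 0.05 became 8, 8 and 6 without replicates 1, 2 and 3 of LPS+ tlr4f/f-lysM-cre, and the 1 lower member became 0 each time. The median log2 fold change was then 1.26, 1.23 and 1.12, and all 28 members kept their sign. Without replicates 1, 2 and 3 of LPS- tlr4f/f-lysM-cre it was 1.21, 1.36 and 0.99, and 27 of 28 kept their sign each time. The shares of all genes above do not apply to these fits. Of the mevalonate genes, the adjusted p of Hmgcs1, Mvk, Pmvk and Mvd by edgeR rose to 0.143, 0.129, 0.149 and 0.0545 without LPS+ tlr4f/f-lysM-cre replicate 3. The count of 7 DEGs was 0 without LPS+ tlr4f/f-lysM-cre replicate 1, 0 without its replicate 2 and 0 without its replicate 3, and 5, 11 and 10 without replicates 1, 2 and 3 of LPS- tlr4f/f-lysM-cre, the last of which held the most stromal and neutrophil RNA. Dhcr7 had log2 fold changes between 1.91 and 2.32 and adjusted p between 0.00104 and 0.0211 over these 6 fits.

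**Figure D3:**
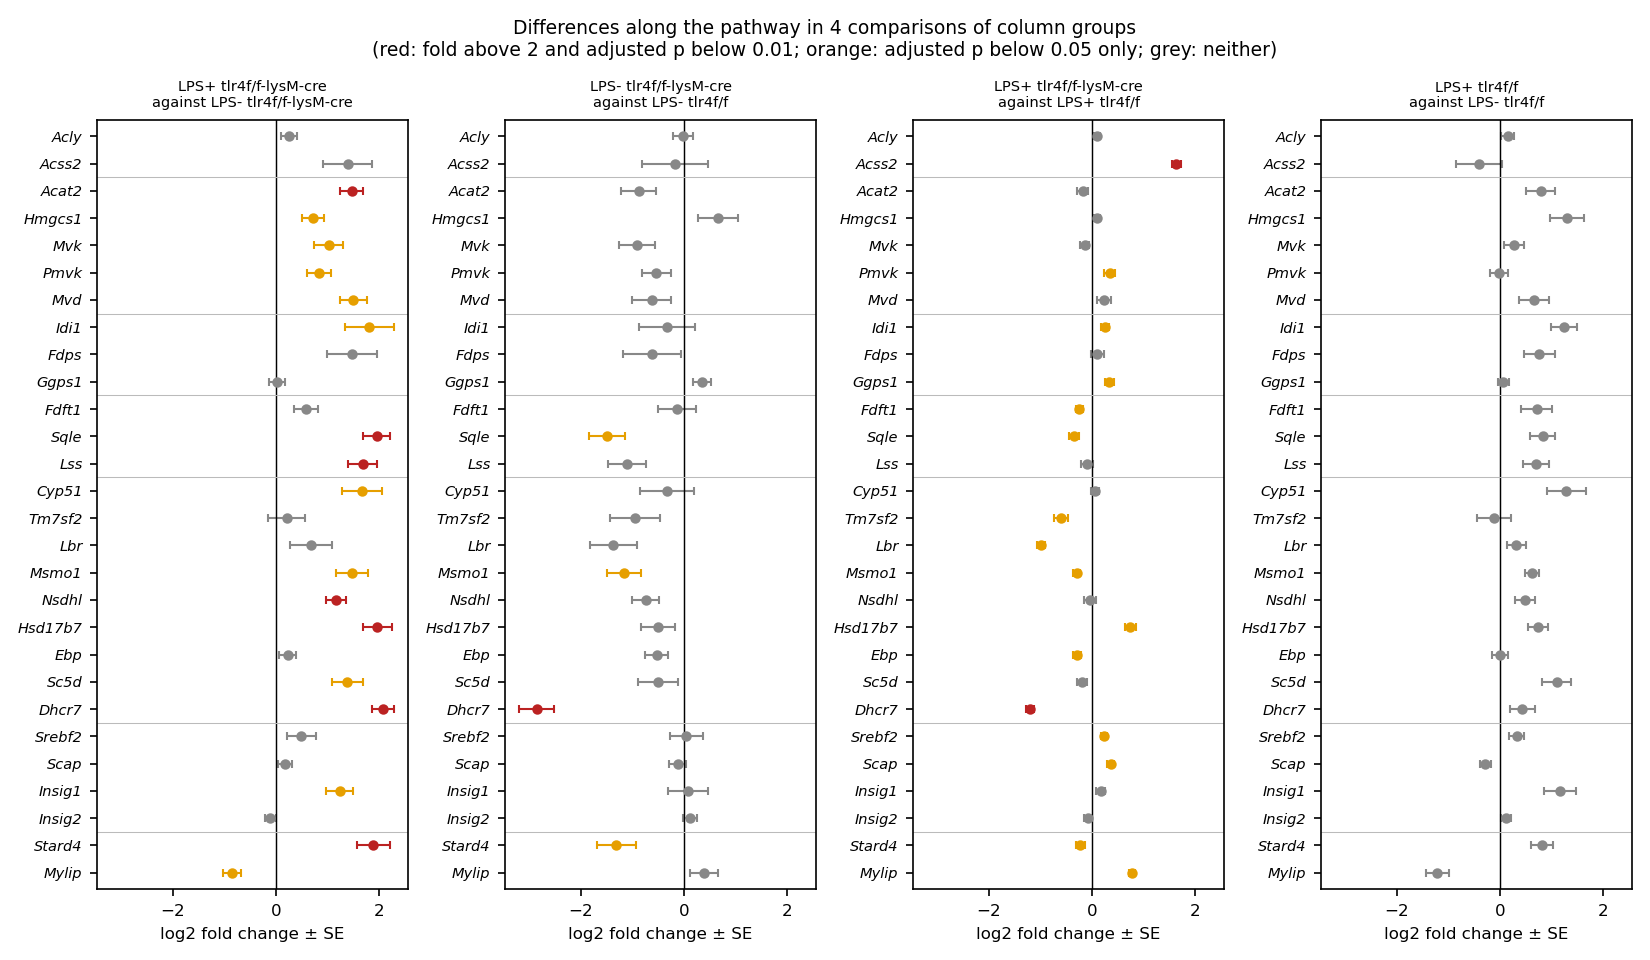
Log2 fold change of each member (points, with bars of 1 SE) in 4 comparisons of column groups, with members in pathway order on the y axis. Red marks DEGs, orange an adjusted p below 0.05 only, and grey neither; 7 members are red on the side of LPS+ tlr4f/f-lysM-cre against LPS- tlr4f/f-lysM-cre, and Dhcr7 is red to the left in LPS- tlr4f/f-lysM-cre against LPS- tlr4f/f.

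The columns headed LPS- tlr4f/f-lysM-cre against LPS- tlr4f/f compare the genotypes without LPS as headed, and LPS in tlr4f/f BMDMs if exchanged. Most of the pathway lay lower in LPS- tlr4f/f-lysM-cre: 22 of 28 members had a negative log2 fold change, with a median of -0.52 beside -0.08 over the 14649 genes tested. Without LPS- tlr4f/f-lysM-cre replicate 3, the library with the most stromal and neutrophil RNA, the median was -0.20 and 23 of 28 members kept their sign. Acly (-0.02) turned positive (0.06) with RLE scaling. Dhcr7 was the 1 DEG, 3.57% of the members beside 17.1% of all genes. At an adjusted p below 0.05, 4 members (14.3%) were lower beside 19.4% of all genes, and 0 were higher beside 17.9%. With all 12 libraries in 1 fit, 10 members were lower and 1 higher at this threshold, and the shares of all genes above do not apply to that fit. The 4 became 1 without LPS- tlr4f/f replicate 2, and 2 without LPS- tlr4f/f replicate 3, LPS- tlr4f/f-lysM-cre replicate 1 or LPS- tlr4f/f-lysM-cre replicate 3. Nor do those shares apply to these fits without 1 library.

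Dhcr7 had 17, 34.7 and 27.2 CPM in LPS- tlr4f/f and 2.88, 4.78 and 3.11 in LPS- tlr4f/f-lysM-cre. The groups did not overlap, and the log2 fold change of -2.85 (SE 0.34, adjusted p = 0.00175, edgeR) was the largest of any member in any comparison. It was -2.73 with an adjusted p of 0.0109 by edgeR without LPS- tlr4f/f-lysM-cre replicate 3, so that no member met the DEG criteria, and without LPS- tlr4f/f-lysM-cre replicate 1 there were 2 such members. Sqle had 38.7, 57.2 and 28.8 CPM in LPS- tlr4f/f against 15.7, 19.3 and 8.89 in LPS- tlr4f/f-lysM-cre, and was lower by -1.49 (SE 0.35, adjusted p = 0.0177, edgeR). Msmo1 and Stard4, which also passed 0.05, had -1.17 (SE 0.33) and -1.31 (SE 0.38). Hmgcs1 had the highest positive value, 0.66 (SE 0.39), with 36, 72.3 and 28.9 CPM in LPS- tlr4f/f and 76.3, 90.1 and 47.3 in LPS- tlr4f/f-lysM-cre, and its groups overlapped. The regulators lay close to 0, with 0.05 for Srebf2, -0.12 for Scap, 0.08 for Insig1 and 0.12 for Insig2.

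The columns headed LPS+ tlr4f/f-lysM-cre against LPS+ tlr4f/f compare the genotypes under LPS as headed, and LPS in tlr4f/f-lysM-cre BMDMs if exchanged. These libraries were the most even, so small differences passed the test, and the members split in both directions: 14 had a positive and 14 a negative log2 fold change, with a median of 0.01 beside -0.02 over the 14551 genes tested. Acss2 and Dhcr7 were DEGs, in opposite directions, 7.14% of the members beside 21.8% of all genes. At an adjusted p below 0.05, 8 members (28.6%) were higher beside 30.5% of all genes, and 8 (28.6%) were lower beside 31.0%. These shares were near or under those of all genes.

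Acss2 had 8.07, 7.89 and 8.64 CPM in LPS+ tlr4f/f and 23.8, 24.3 and 28.1 in LPS+ tlr4f/f-lysM-cre, and every library of LPS+ tlr4f/f-lysM-cre lay above every other library of the series. Its log2 fold change was 1.64 (SE 0.09, adjusted p = 1.02e-08, edgeR). Dhcr7 had 32.4, 34.9 and 37.8 CPM in LPS+ tlr4f/f and 15, 15 and 15.6 in LPS+ tlr4f/f-lysM-cre, lower by -1.20 (SE 0.07, adjusted p = 2.55e-08, edgeR), with no overlap.

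The members that were higher in LPS+ tlr4f/f-lysM-cre at an adjusted p below 0.05 were Acss2, Pmvk (0.34), Idi1 (0.26), Ggps1 (0.34), Hsd17b7 (0.75), Srebf2 (0.23), Scap (0.36) and Mylip (0.77). Those that were lower were Fdft1 (-0.24), Sqle (-0.35), Tm7sf2 (-0.60), Lbr (-0.98), Msmo1 (-0.30), Ebp (-0.29), Dhcr7 and Stard4 (-0.22). Of the 9 enzymes from lanosterol to cholesterol, 5 were thus lower, beside 31.0% of all genes, and 1 was higher, beside 30.5%. In fits without 1 library, the adjusted p by edgeR rose as far as 0.140 for Stard4, 0.0779 for Pmvk and 0.0686 for Idi1. The other members named stayed below 0.05. The log2 fold change lay between -0.31 and -0.14 for Stard4, 0.22 and 0.44 for Pmvk, and 0.20 and 0.33 for Idi1. With all 12 libraries in 1 fit, 3 of the 28 members were higher and 1 lower at this threshold, and the shares of all genes above do not apply to that fit. Hsd17b7 had 20.6, 19.4 and 24.8 CPM in LPS+ tlr4f/f and 32.2, 35.4 and 40.9 in LPS+ tlr4f/f-lysM-cre, and its groups did not overlap. Lbr, which also anchors heterochromatin at the nuclear envelope, had 52.4, 52 and 57.2 CPM in LPS+ tlr4f/f and 25.6, 25.2 and 30.5 in LPS+ tlr4f/f-lysM-cre, lower by -0.98 (SE 0.08, adjusted p = 3.14e-07, edgeR). Mylip had 29.8, 28.8 and 30.9 and 48.9, 51.8 and 50.9 CPM, higher by 0.77 (SE 0.06, adjusted p = 1.94e-07, edgeR). Neither Lbr nor Mylip overlapped between the groups.

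The columns headed LPS+ tlr4f/f against LPS- tlr4f/f are LPS in tlr4f/f BMDMs as headed, and the genotypes without LPS if exchanged. Of the 28 members, 23 had a positive log2 fold change, with a median of 0.55 beside -0.03 over the 14712 genes tested. edgeR called 0 members DEGs, as it did 0% of all genes, and 0 at an adjusted p below 0.05, beside 0.605% of all genes higher and 0.673% lower. At an unadjusted p below 0.05 by edgeR there were 15 of 28 members, 13 of them higher, beside 3626 of 14712 genes, 1701 of them higher. DESeq2 called 6 members by the DEG criteria and limma voom called 0. At an adjusted p below 0.05 alone, DESeq2 had 10 members higher and 1 lower, and limma voom 4 higher and 1 lower. By edgeR without LPS- tlr4f/f replicate 2, 11 members were higher and 1 lower at that threshold, and without its replicate 3, 2 were higher and 1 lower. The shares of all genes above are those of edgeR with no library left out and do not apply to the counts of these other fits.

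The largest positive values were those of Hmgcs1 at 1.30 (SE 0.33, adjusted p = 0.0915, edgeR), Cyp51 at 1.29 (SE 0.37), Idi1 at 1.24 (SE 0.26) and Insig1 at 1.17 (SE 0.32). Hmgcs1 had 36, 72.3 and 28.9 CPM in LPS- tlr4f/f and 108, 106 and 117 in LPS+ tlr4f/f. All 3 libraries of LPS+ tlr4f/f lay above those of LPS- tlr4f/f, of which replicate 2 came nearest. Insig1 had 36.4, 82.2 and 39.3 CPM in LPS- tlr4f/f and 114, 106 and 129 in LPS+ tlr4f/f, also with no overlap. Mylip had the largest negative value, -1.21 (SE 0.22, adjusted p = 0.0563, edgeR), with 66.9, 50.2 and 92 CPM in LPS- tlr4f/f and 29.8, 28.8 and 30.9 in LPS+ tlr4f/f and no overlap.

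**Figure D4:**
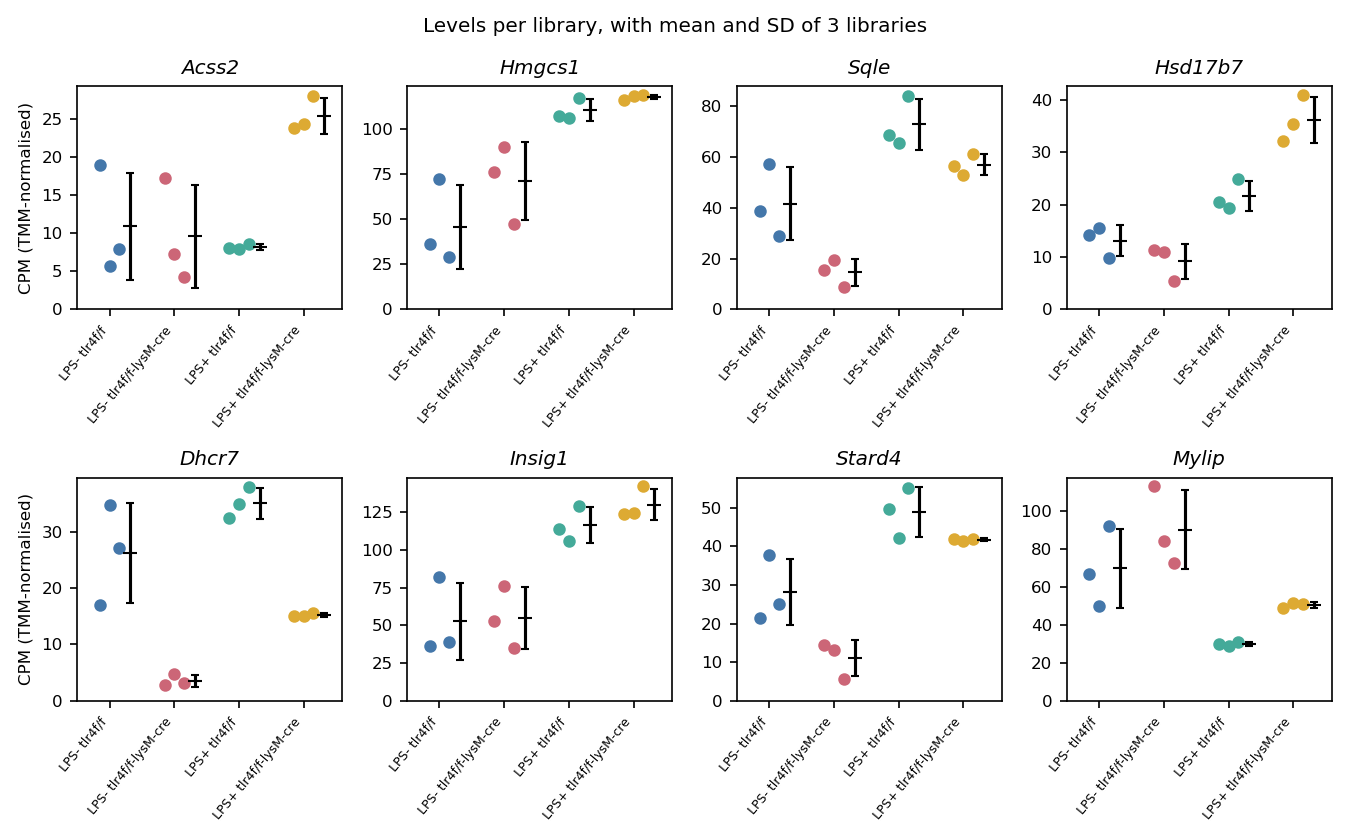
CPM of 8 members in each library (points, 3 per group) with the mean and SD beside them, on linear axes from 0. Dhcr7 is lowest in the columns headed LPS- tlr4f/f-lysM-cre, Acss2 and Hsd17b7 are highest under LPS+ tlr4f/f-lysM-cre, and Mylip is lowest under LPS+ tlr4f/f.

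A pair of contrasts does not depend on which reading of the headings is right. The columns headed LPS+ tlr4f/f-lysM-cre against LPS- tlr4f/f differ in genotype and in LPS together and involve neither doubtful heading. Of the 28 members, 23 had a positive log2 fold change, with a median of 0.46 beside -0.05 over the 14595 genes tested. Idi1 and Hsd17b7 were DEGs and higher, 7.14% of the members beside 13.4% of all genes. At an adjusted p below 0.05, 8 members (28.6%) were higher beside 20.4% of all genes, and 2 (7.14%) were lower beside 20.4%.

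Hsd17b7 had 14.1, 15.5 and 9.82 CPM in LPS- tlr4f/f and 32.2, 35.4 and 40.9 in LPS+ tlr4f/f-lysM-cre, with a log2 fold change of 1.46 (SE 0.19, adjusted p = 0.00224, edgeR). Idi1 had 7.97, 16.1 and 9.97 and 31.3, 29.6 and 33.3 CPM, with 1.48 (SE 0.25, adjusted p = 0.00544, edgeR). Neither overlapped between groups. Hmgcs1 (1.38), Ggps1 (0.38), Cyp51 (1.33), Sc5d (0.89), Srebf2 (0.54) and Insig1 (1.31) were also higher at an adjusted p below 0.05. Lbr was lower by -0.68 and Dhcr7 by -0.78, with 56, 40.3 and 34.4 and 17, 34.7 and 27.2 CPM in LPS- tlr4f/f. The median was 0.39, 0.72 and 0.42 without replicates 1, 2 and 3 of LPS- tlr4f/f. It was 0.50, 0.48 and 0.44 without replicates 1, 2 and 3 of LPS+ tlr4f/f-lysM-cre. The 8 higher members became 2, and the 2 lower ones 0, without any 1 of the 3 libraries of LPS+ tlr4f/f-lysM-cre, and 16 were higher without LPS- tlr4f/f replicate 2. The 2 DEGs likewise became 0 without any 1 of the 3 libraries of LPS+ tlr4f/f-lysM-cre, and 4, 6 and 1 without replicates 1, 2 and 3 of LPS- tlr4f/f. The shares of all genes in the preceding paragraph do not apply to these fits without 1 library.

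The other such contrast is the interaction of genotype and LPS over all 12 libraries, which is the difference LPS+ tlr4f/f-lysM-cre minus LPS- tlr4f/f-lysM-cre less the difference LPS+ tlr4f/f minus LPS- tlr4f/f and has the same value with the headings exchanged. It was positive for 24 of 28 members, with a median of 0.51 beside 0.05 over the 15792 genes tested. The median was 0.26 without LPS- tlr4f/f-lysM-cre replicate 3 and 0.83 without LPS- tlr4f/f-lysM-cre replicate 2. Insig1 (0.06) turned slightly negative (-0.01) with RLE scaling. By edgeR 0 members met the DEG criteria beside 0.994% of all genes. At an unadjusted p below 0.05 there were 10 of 28 members beside 3692 of 15792 genes. DESeq2 called 1 member by the DEG criteria and limma voom 0, with no share of all genes given for these tools. At an adjusted p below 0.05 1 member (3.57%) was higher beside 4.13% of all genes, and 0 were lower beside 2.86%.

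That member was Dhcr7. As headed its difference with LPS was 2.07 with the Cre allele and 0.43 without it, and if exchanged its difference between genotypes was 2.07 with LPS and 0.43 without. The interaction was 1.63 (SE 0.34, adjusted p = 0.0193, edgeR). Without 1 library at a time it lay between 1.41 and 1.91. The adjusted p lay between 0.00733 and 0.0634 in these fits, above 0.05 without LPS+ tlr4f/f replicate 1 or 2 and without LPS+ tlr4f/f-lysM-cre replicate 1 or 3, and Dhcr7 met the DEG criteria without LPS- tlr4f/f replicate 1. Acss2 had a larger value with a wider error, 1.79 (SE 0.71, adjusted p = 0.155, edgeR). After Dhcr7 the lowest adjusted p were those of Hsd17b7, with 1.23 (SE 0.36, adjusted p = 0.0684, edgeR), and Sqle, with 1.12 (SE 0.39, adjusted p = 0.111). Hmgcs1 had the lowest value, -0.59 (SE 0.42).

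**Figure D5:**
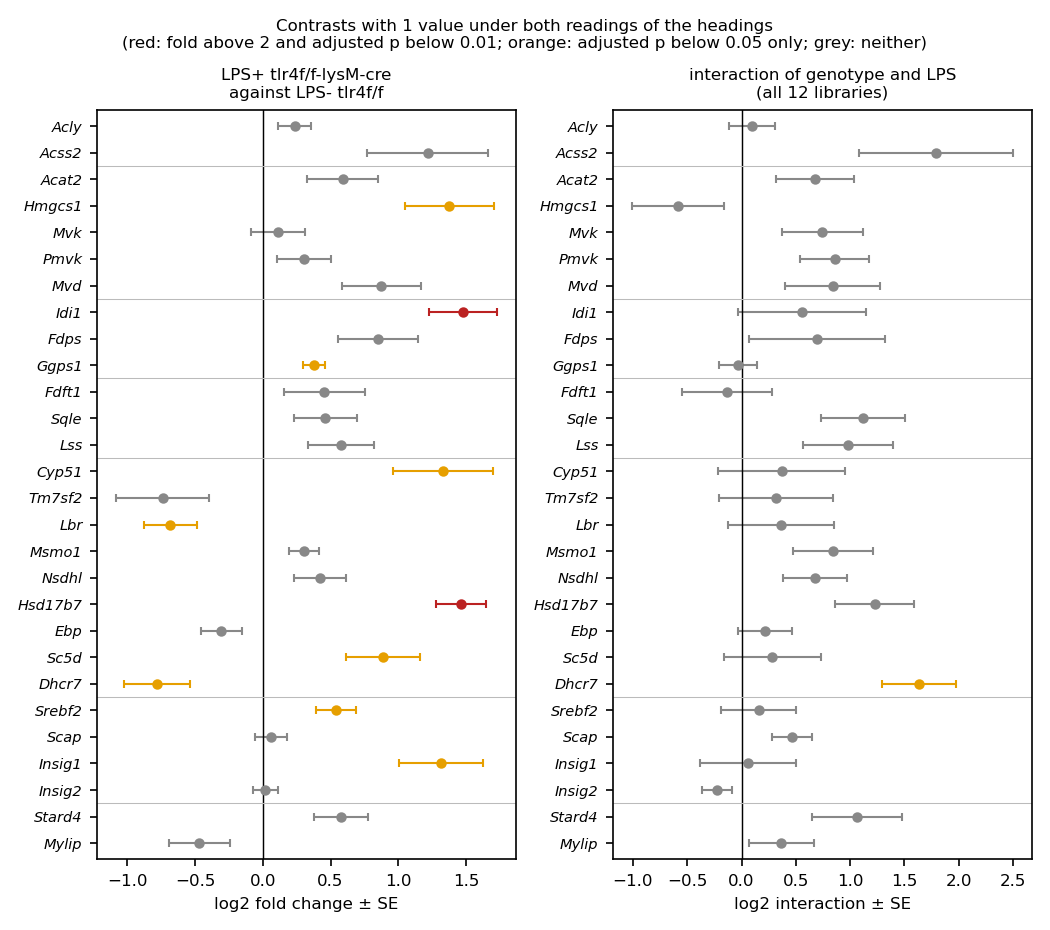
Log2 fold change of LPS+ tlr4f/f-lysM-cre against LPS- tlr4f/f (left) and the interaction of genotype and LPS (right) for each member, with bars of 1 SE and members in pathway order. Red marks DEGs, orange an adjusted p below 0.05 only, and grey neither; Idi1 and Hsd17b7 are red on the left, and Dhcr7 is the 1 coloured member on the right at 1.63.

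Over the whole series, Insig2 was the most even of the regulators. It lay between 23.3 and 28 CPM over the 12 libraries and passed no test in the 6 comparisons. Scap lay between 57.6 and 80.5 CPM and passed only in LPS+ tlr4f/f-lysM-cre against LPS+ tlr4f/f. Srebf2 lay between 101 and 272 CPM, with the lowest value in LPS- tlr4f/f-lysM-cre replicate 3 (224, 212 and 101 CPM in its group). Insig1 lay between 35.3 and 142 CPM, with all LPS+ columns at 105.5 or more and all LPS- columns at 82.2 or less.

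Other genes tied to the pathway were taken as lists. Of 9 genes of SREBP processing and sterol sensing, 2 were higher and 1 lower at an adjusted p below 0.05 in LPS+ tlr4f/f-lysM-cre against LPS- tlr4f/f-lysM-cre, beside 12.5% and 14.2% of all genes. In LPS- tlr4f/f-lysM-cre against LPS- tlr4f/f 2 were higher and 2 lower, beside 17.9% and 19.4% of all genes, where Rnf139, an endoplasmic reticulum ubiquitin ligase, was the 1 DEG (1.23, SE 0.17). Of 10 genes of SREBP1 and fatty acid synthesis, all 10 had a negative log2 fold change in LPS- tlr4f/f-lysM-cre against LPS- tlr4f/f, with 5 DEGs, beside 17.1% of all genes, and a median of -2.17. All 10 had a positive one in LPS+ tlr4f/f-lysM-cre against LPS- tlr4f/f-lysM-cre, with 3 DEGs, beside 6.09% of all genes, and a median of 1.69, and all 10 a negative one in LPS+ tlr4f/f-lysM-cre against LPS+ tlr4f/f, with 4 DEGs, beside 21.8% of all genes, and a median of -0.90. In LPS+ tlr4f/f-lysM-cre against LPS- tlr4f/f 4 were positive and 6 negative, with 3 DEGs, all lower, beside 13.4% of all genes, and a median of -0.35. In LPS+ tlr4f/f against LPS- tlr4f/f 8 were positive and 2 negative, with 0 DEGs and a median of 0.57. There 8 of 10 had an unadjusted p below 0.05 by edgeR, beside 3626 of 14712 genes. At an adjusted p below 0.05 1 was higher, beside 0.605% of all genes. In the interaction all 10 were positive, with 1 DEG, beside 0.994% of all genes, and a median of 0.93. Scd2, a stearoyl-CoA desaturase, had the largest interaction of these, 2.57 (SE 0.43, adjusted p = 0.00865, edgeR), and differed by 3.94 in LPS+ tlr4f/f-lysM-cre against LPS- tlr4f/f-lysM-cre. Lpin1, a phosphatidate phosphatase, had the largest difference in LPS- tlr4f/f-lysM-cre against LPS- tlr4f/f, -4.09 (SE 0.71).

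Of 8 genes of LXR, sterol efflux and esterification, Ch25h had the largest log2 fold change in any comparison. It makes 25-hydroxycholesterol, an oxysterol known to block SREBP processing. It had 4.55, 4.81 and 7.36 CPM in LPS- tlr4f/f, 163, 296 and 196 in LPS- tlr4f/f-lysM-cre, 1.18, 1.92 and 0.995 in LPS+ tlr4f/f and 22, 27 and 15.8 in LPS+ tlr4f/f-lysM-cre. All libraries of LPS- tlr4f/f-lysM-cre lay above all others. Its log2 fold change was 5.31 (SE 0.35, adjusted p = 4.66e-04, edgeR) in LPS- tlr4f/f-lysM-cre against LPS- tlr4f/f and -3.35 (SE 0.29, adjusted p = 0.00134) in LPS+ tlr4f/f-lysM-cre against LPS- tlr4f/f-lysM-cre. It was the 1 DEG of the list in each, beside 17.1% and 6.09% of all genes. In LPS+ tlr4f/f-lysM-cre against LPS+ tlr4f/f 3 of the 8 were DEGs and higher, Ch25h among them (4.03, SE 0.30). There 1 other was a DEG and lower, beside 21.8% of all genes called in either direction. Of 9 genes that use prenyl chains, 3 were higher and 0 lower at an adjusted p below 0.05 in LPS+ tlr4f/f-lysM-cre against LPS- tlr4f/f-lysM-cre, beside 12.5% and 14.2% of all genes, and none was a DEG. Pggt1b, a subunit of a geranylgeranyl transferase, was the 1 DEG of this list in LPS+ tlr4f/f-lysM-cre against LPS- tlr4f/f, beside 13.4% of all genes (1.01, SE 0.17).

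Genes of the cell cycle were taken as a further list. Its 12 genes summed to 1247, 1714 and 611 CPM in LPS- tlr4f/f, 579, 618 and 417 in LPS- tlr4f/f-lysM-cre, 2173, 2117 and 2228 in LPS+ tlr4f/f and 876, 938 and 1068 in LPS+ tlr4f/f-lysM-cre. In LPS+ tlr4f/f-lysM-cre against LPS- tlr4f/f-lysM-cre 9 of 12 were higher at an adjusted p below 0.05, beside 12.5% of all genes, and in LPS- tlr4f/f-lysM-cre against LPS- tlr4f/f 5 were lower, beside 19.4%. In LPS+ tlr4f/f-lysM-cre against LPS+ tlr4f/f all 12 were lower, beside 31.0% of all genes, and 10 of them were DEGs, beside 21.8%, while the 28 pathway members split evenly there. In LPS+ tlr4f/f-lysM-cre against LPS- tlr4f/f 3 of 12 were lower at an adjusted p below 0.05, beside 20.4% of all genes, and 0 higher, beside 20.4%. Of these, 2 were DEGs, beside 13.4% of all genes. In that comparison 6 of 12 had a positive log2 fold change, with a median of 0.06, beside 0.46 for the members. In LPS+ tlr4f/f against LPS- tlr4f/f 10 of 12 had a positive one, with a median of 1.28 beside 0.55 for the members, and in the interaction 10 of 12, with a median of 0.77 beside 0.51. The lists were not tested against each other. The part of proliferation and of the stromal, neutrophil, dendritic cell and macrophage RNA in the differences of the pathway was not tested.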

How the data were processed

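RNA of 12 BMDM libraries was sequenced by the authors in paired-end reads, trimmed (Trimmomatic 0.36, per the submitters' processing notes), aligned to mm10 with HISAT2 and counted with HTSeq. The labels name both removal of ribosomal RNA and poly(A) sequencing for these libraries. The deposited values are whole-number read counts per transcript, not normalised, in 115140 transcript rows; the authors' Length column was used only for levels per kilobase. Transcripts of a gene share reads, so the row with the highest total was taken per gene, matched by its name, which left 43453 genes. The table holds neither fold changes nor p-values of the authors.

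For the tests, edgeR 4.0.16 (R 4.3.3) was run with filterByExpr, TMM and a robust quasi-likelihood fit on the 6 libraries compared (12 for the interaction) and Benjamini-Hochberg adjustment over all genes tested. The study's criteria for DEGs were kept (more than 2-fold, adjusted p under 0.01). The SE is the log2 fold change divided by the square root of the F statistic. Genes named are all 28 members, the heading checks, and the DEG of the largest change in a comparison for the 4 further pathway lists. The cell cycle and cell type lists are given as counts and sums, with a few markers named as examples. DESeq2 1.42.0, limma voom 3.58.1, RLE factors, other filters, a fit of all 12 libraries, the replicate number as a block, summed transcript rows, exchanged headings, a threshold of 0.05 on the adjusted p, and fits without each library in turn were the alternatives. Depth was 33577440 to 56445989 counts over genes, with a median of 45331247.5. Scripts were tested on simulated data. The members and lists were chosen with earlier results of these data known.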

Additional observations from a re-analysis of the deposited data

Results flagged for a closer look

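The difference of Dhcr7 with LPS differed between the genotypes as headed at an adjusted p below 0.05 by the edgeR test of the interaction itself, a call that single libraries decide. The interaction was 1.63 on the log2 scale (SE 0.34, adjusted p = 0.0193, edgeR over all 12 libraries), from a difference of 2.07 with the Cre allele and 0.43 without it. With the headings exchanged the same value is the change of the genotype difference by LPS. All 3 libraries headed LPS+ tlr4f/f-lysM-cre lay above those headed LPS- tlr4f/f-lysM-cre, while those headed LPS+ tlr4f/f overlapped those headed LPS- tlr4f/f. Without 1 library at a time the adjusted p lay between 0.00733 and 0.0634, and it was above 0.05 without LPS+ tlr4f/f replicate 1 or 2 and without LPS+ tlr4f/f-lysM-cre replicate 1 or 3. By limma voom the interaction was 1.66 with an adjusted p of 0.0587, and by DESeq2 it was 1.56 with an adjusted p of 5.98e-04.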

How the results depend on the processing

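Exchanging the headings turned the direction of 23 of the 48 member results followed. LPS+ tlr4f/f-lysM-cre against LPS- tlr4f/f-lysM-cre then takes the values Acat2 -0.18, Mvk -0.14, Sqle -0.35, Lss -0.095, Msmo1 -0.30, Nsdhl -0.040, Sc5d -0.19, Dhcr7 -1.20, Stard4 -0.22 and Mylip 0.77, with 2 DEGs in place of 7. LPS- tlr4f/f-lysM-cre against LPS- tlr4f/f takes Sqle 0.83, Msmo1 0.62, Dhcr7 0.43 and Stard4 0.82, with 0 DEGs in place of 1. LPS+ tlr4f/f-lysM-cre against LPS+ tlr4f/f takes Fdft1 0.59, Sqle 1.95, Tm7sf2 0.21, Lbr 0.68, Msmo1 1.47, Ebp 0.23, Dhcr7 2.07, Stard4 1.89 and Mylip -0.85, with 7 DEGs in place of 2, and LPS+ tlr4f/f against LPS- tlr4f/f has 1 in place of 0. The 48 results are those with an adjusted p below 0.05, of which 12 are DEGs. With 1 library left out, none of 294 values changed sign; 91 of them were no longer below 0.05, and 35 of the 72 values of DEGs no longer met the DEG criteria, while 16 others did. Under the other settings that refit the data, none of 383 values changed sign; 40 were no longer below 0.05, and 17 of the 96 values of DEGs no longer met the DEG criteria, while 33 others did.

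With the headings kept, counts of DEGs moved more than directions. Counts under other tools and fits are given without the share of all genes in the same fit. For LPS+ tlr4f/f-lysM-cre against LPS- tlr4f/f-lysM-cre (7), DESeq2 gave 14, limma voom 12, summed transcript rows 4, an adjusted p below 0.05 with no fold minimum 17, and leaving out 1 library 0 to 11. For LPS- tlr4f/f-lysM-cre against LPS- tlr4f/f (1), DESeq2 gave 3, limma voom 2, all 12 libraries in 1 fit 5, an adjusted p below 0.05 gave 4, and leaving out 1 library 0 to 2. For LPS+ tlr4f/f-lysM-cre against LPS+ tlr4f/f (2), all 12 libraries in 1 fit gave 1, limma voom and the fit with no filter beyond 1 count 3 each, an adjusted p below 0.05 gave 16, and leaving out 1 library 2 to 3. For LPS+ tlr4f/f-lysM-cre against LPS- tlr4f/f (2), DESeq2 gave 5, limma voom 4, all 12 libraries in 1 fit 3, an adjusted p below 0.05 gave 10, and leaving out 1 library 0 to 6. For LPS+ tlr4f/f against LPS- tlr4f/f (0), DESeq2 gave 6. For the interaction (0), DESeq2 gave 1, an adjusted p below 0.05 gave 1, and leaving out 1 library 0 to 1, with the 1 without LPS- tlr4f/f replicate 1. The cause of these shifts was not tested. Same-numbered libraries did not deviate together in every pair (r from -0.04 to 0.47), so the numbers were not taken to pair them. The highest r were 0.47 and 0.34, for replicates 1 and 2 of the LPS- groups, where replicate 3 had 0.02. With the replicate block the counts were 0 for LPS+ tlr4f/f-lysM-cre against LPS- tlr4f/f-lysM-cre, 2 for LPS- tlr4f/f-lysM-cre against LPS- tlr4f/f, 2 for LPS+ tlr4f/f-lysM-cre against LPS+ tlr4f/f, 0 for LPS+ tlr4f/f-lysM-cre against LPS- tlr4f/f, 0 for LPS+ tlr4f/f against LPS- tlr4f/f and 0 for the interaction. With the block, 9 members were lower and 1 higher at an adjusted p below 0.05 in LPS- tlr4f/f-lysM-cre against LPS- tlr4f/f, in place of 4 and 0.

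With 3 libraries per group, and a spread that differs between the LPS- and LPS+ columns, a missing call does not show that a member is unchanged. RLE in place of TMM moved the median of all genes by at most 0.08.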

Other observations

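For 3 of the 28 members the second transcript row held less than 80% of the count of the row used: Pmvk, Fdft1 and Stard4. For Fdft1, the second row, a longer transcript model of 5107 bases, held between 17.0% and 21.0% of the count of the first under LPS+ tlr4f/f and between 25.5% and 30.7% under LPS+ tlr4f/f-lysM-cre, so the ranges did not overlap. The ranges were 15.8% to 21.8% under LPS- tlr4f/f and 11.3% to 28.5% under LPS- tlr4f/f-lysM-cre. For Stard4 the ranges were 63.6% to 67.9% under LPS- tlr4f/f, 53.7% to 75.6% under LPS- tlr4f/f-lysM-cre, 59.3% to 62.2% under LPS+ tlr4f/f and 62.0% to 67.0% under LPS+ tlr4f/f-lysM-cre, so that LPS- tlr4f/f lay above LPS+ tlr4f/f with no overlap. For Pmvk the ranges of the 4 groups, within 69.9% to 81.7%, overlapped. These shares were chosen for description after their values were seen and were not tested.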
